A study of Mus musculus with 13 samples.

Results

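The genes described here are 10 transcription factor genes of the megakaryocyte and red cell lineages, Gata1, Gata2, Klf1, Tal1, Gfi1b, Zfpm1, Nfe2, Fli1, Runx1 and Lmo2. They were listed by name for their known role, with earlier results of these data known, and all 10 were found among the 13201 genes of the deposited table. The RNA came from haematopoietic stem cells (HSCs) sorted from mouse bone marrow, 100 cells to a library, and was sequenced by Smart-seq2, a full-length method for very small cell numbers. There were 13 libraries in 4 groups: 3 of untreated wild-type (WT) mice (D1, D2, D3), 3 of untreated MEK1-deficient (KO) mice (D4, D5, D6), 4 of WT mice given 5-fluorouracil (5-FU; A2, A3, A4, D4) and 3 of KO mice given 5-FU (A5, A6, A8). MEK1, encoded by Map2k1, is a kinase that activates ERK, and 5-FU is a cytotoxic drug that kills cycling marrow cells and drives stem cells into division. The dose and time of 5-FU, the Cre or promoter behind the deletion, and the age and number of the mice are not stated in the labels. Nor do they say whether libraries came from separate animals, and the p-values therefore reflect only the spread between these libraries, which may be technical.

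Read totals were 11416753 to 45384866 per library, the highest in untreated WT D1, which ran on both flowcells, and the next at 25380570. The targeted gene Map2k1 had a mean normalized read count of 1262 ± 449 in untreated WT and 635 ± 105 in untreated KO, and of 1099 ± 584 and 364 ± 83.8 after 5-FU (SD, n = 3, 3, 4 and 3), with no overlap between genotypes in either condition. In WT after 5-FU, A3 and D4 had a correlation of 0.988 across genes, against 0.936 to 0.945 for the other pairs of that group, so results that rest on them were repeated with the pair averaged. The 3 KO libraries after 5-FU were also close to each other (0.968 to 0.977), against 0.914 to 0.928 within untreated WT and 0.942 to 0.945 within untreated KO. All 10 HSC markers listed for the check of cell identity had reads in every group. In WT after 5-FU, 4 of them fell, Procr, Hlf, Fgd5 and Ly6a, and 2 rose, Slamf1 and Ctnnal1. Over all genes 2.96% fell and 3.72% rose in WT. In KO after 5-FU, 3 of the markers fell, Kit, Mllt3 and Ly6a, and 0 rose, where 3.14% of all genes fell and 2.78% rose. The median log2 difference of the 10 markers was -0.20 in WT and -0.74 in KO. Procr went from 880 ± 95.2 normalized reads in untreated WT to 54.7 ± 74.2 after 5-FU, Fgd5 from 475 ± 101 to 37.3 ± 46.8 and Hlf from 2987 ± 561 to 614 ± 294 (n = 3 and 4). Their part in the rises of the factors in WT was not tested.

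In blood formation, GATA2 maintains stem and progenitor cells, and GATA1 takes over from it as cells commit to the red cell and megakaryocyte lineages. GATA1 acts with its cofactor FOG1 (gene Zfpm1), and with TAL1 and the bridging protein LMO2 in a complex that binds regulatory DNA. KLF1 drives red cell genes, FLI1, RUNX1 and NF-E2 (large subunit gene Nfe2) drive megakaryocyte and platelet genes, and GFI1B represses genes in both lineages. KLF1 and FLI1 are known to oppose each other at the branch between red cells and megakaryocytes.

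Promoter windows of up to 250 bases before an annotated start site were taken from RefSeq on GRCm38.p6, the assembly of mm10, with annotated exons left out. Windows were found for 7 of the 10 genes, and Fli1, Nfe2 and Lmo2 had none. Those of the 4 genes that rose in WT cells after 5-FU are shown, 5′ to 3′ on the gene's strand, because GATA1 is a known regulator of its own gene and of Klf1 and Gfi1b. Capitals mark matches, on either strand, to the GATA motif (AGATAA or AGATAG or TGATAA or TGATAG) and to the CACCC-type motif that KLF factors bind (CCNCNCCC), whose matches may overlap.
Gata1, chrX:7967911-7968160, minus strand: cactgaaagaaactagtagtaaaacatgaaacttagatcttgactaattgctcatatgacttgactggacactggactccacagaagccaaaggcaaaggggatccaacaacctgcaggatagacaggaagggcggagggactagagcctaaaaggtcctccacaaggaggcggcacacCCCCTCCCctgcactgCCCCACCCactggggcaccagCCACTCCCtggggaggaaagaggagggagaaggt
Klf1, chr8:84901732-84901927, plus strand: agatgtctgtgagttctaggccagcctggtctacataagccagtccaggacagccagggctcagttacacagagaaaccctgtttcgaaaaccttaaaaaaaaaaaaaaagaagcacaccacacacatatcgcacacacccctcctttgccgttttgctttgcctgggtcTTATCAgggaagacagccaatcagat
Gfi1b, chr2:28621983-28622232, minus strand: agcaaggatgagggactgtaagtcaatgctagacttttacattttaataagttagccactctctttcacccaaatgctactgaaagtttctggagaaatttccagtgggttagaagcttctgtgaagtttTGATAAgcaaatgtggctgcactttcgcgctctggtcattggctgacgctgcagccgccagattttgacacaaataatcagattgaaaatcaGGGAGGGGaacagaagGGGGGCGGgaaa
Zfpm1, chr8:122281891-122282140, plus strand: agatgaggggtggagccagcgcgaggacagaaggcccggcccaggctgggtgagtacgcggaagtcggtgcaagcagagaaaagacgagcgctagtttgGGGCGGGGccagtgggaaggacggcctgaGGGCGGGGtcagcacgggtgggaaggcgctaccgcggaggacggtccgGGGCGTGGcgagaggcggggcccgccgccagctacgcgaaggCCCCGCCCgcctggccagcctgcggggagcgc

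Klf1 and Gfi1b each held 1 GATA match, at positions -80 to -75 and -120 to -115 from the start site. Gata1 and Zfpm1 held 0 in these windows. The Gata1 window precedes a start site at 7967910, inside the annotated gene (7959260 to 7978071). Its count therefore does not describe the sequence before the gene's 5′ end at 7978071. CACCC-type matches numbered 3 in Gata1, 2 in Gfi1b, 4 in Zfpm1 and 0 in Klf1. Of the genes not shown, which did not rise, Tal1 held 1 GATA match and 4 CACCC-type matches over its windows, Gata2 1 CACCC-type match and Runx1 4. Of 32851 mouse promoter windows of 250 bases, 26.54% held the GATA motif and 45.93% the CACCC-type motif, so both are common. A match describes the sequence and does not show that a factor binds there. The RUNX motif TGTGGT (14.05% of windows) matched once in Klf1, and the ETS motif CCGGAAG (6.907%) and the NF-E2 motif TGANTCA (6.749%) matched in none of the windows of the 7 genes. The Klf1 window is the shortest of those shown, 196 bases, because exon bases were left out.

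After 5-FU, several of the factors were lower in KO than in WT HSCs, and these came from both branches of the lineage. Of the 10 genes, 5 were lower in KO (Gata1, Klf1, Fli1, Runx1 and Nfe2) and 0 were higher, where 5.5% of the 12846 genes tested were called lower. In WT cells, 4 of the 10 rose after 5-FU (Gata1, Klf1, Gfi1b and Zfpm1) and 0 fell, where 3.72% of all genes rose. In KO cells 0 rose and 2 fell (Lmo2 and Nfe2), where 3.14% of all genes fell. Between untreated KO and WT cells 0 of the 10 were called, where 0.0311% of all genes were, and limma-voom also called 0. At an unadjusted p under 0.05 the count was 0 of 10 beside 1291 of 12846 genes in all (10%), which is near the background. A gene is called here at a Benjamini-Hochberg adjusted p below 0.05 in limma, fitted to all tested genes. In bulk RNA, fewer cells that express a gene and less RNA per cell cannot be told apart.

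**Figure D1:**
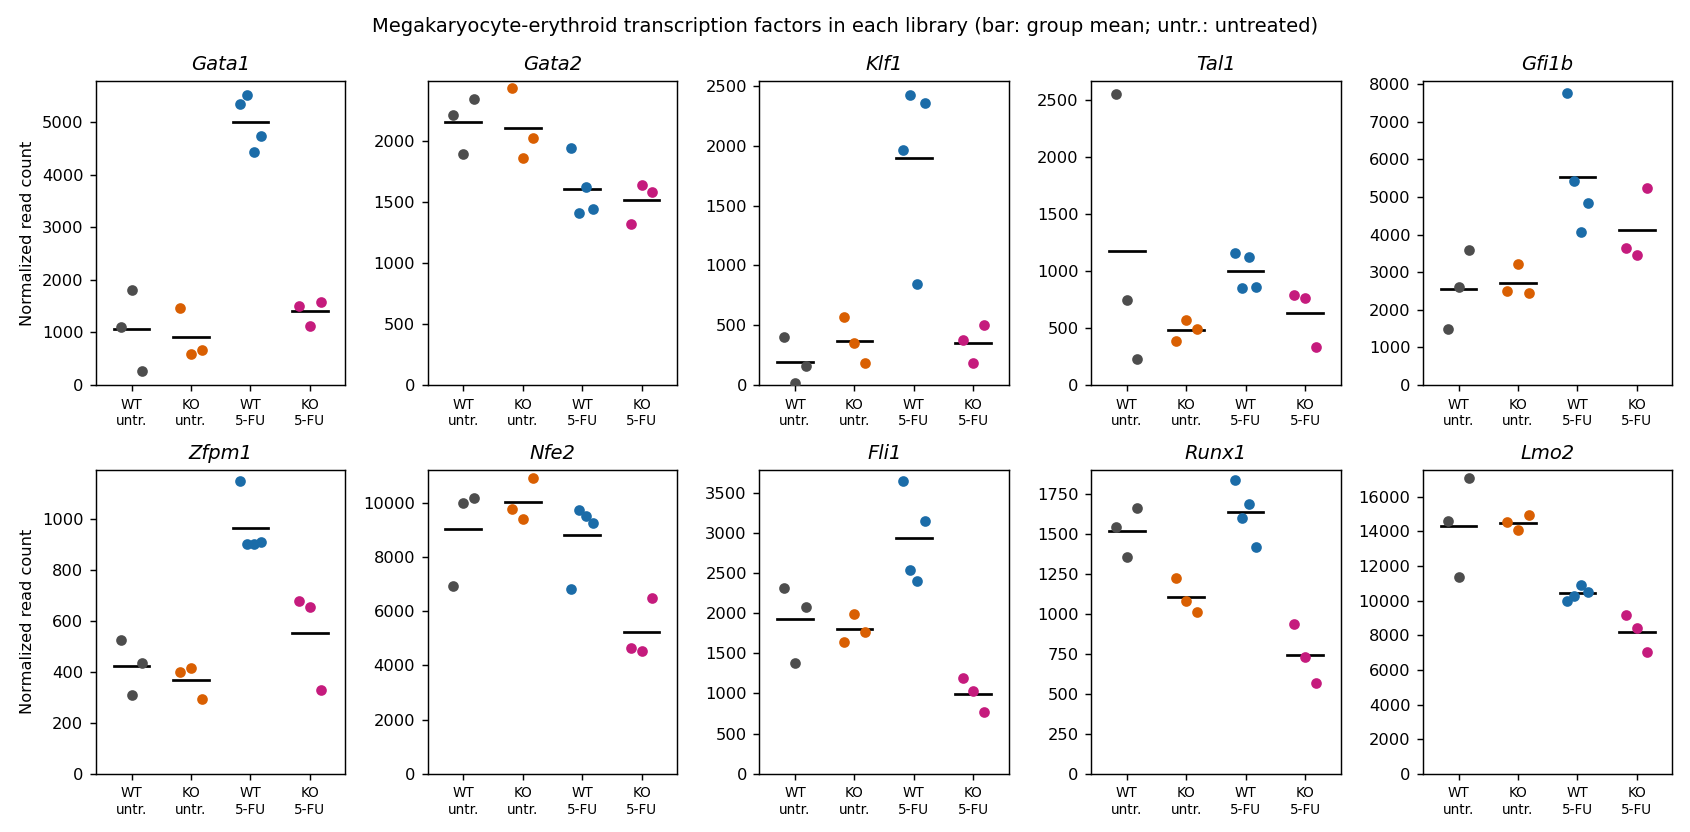
Normalized read count (vertical axis, from 0, its own scale per panel) of the 10 factors in the 13 libraries, by group on the horizontal axis, with 1 point per library and a bar at the group mean. Gata1, Klf1 and Fli1 show the 4 WT libraries after 5-FU above all 3 KO libraries after 5-FU, whereas the Gata2 points of these groups overlap.

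Gata1 (ENSMUSG00000031162, chromosome X, 7959260 to 7978071, minus strand, GRCm38) encodes the master regulator of red cell and megakaryocyte differentiation. Untreated WT libraries D1, D2 and D3 held 1113, 1815 and 276 normalized reads, and untreated KO libraries D4, D5 and D6 held 1466, 588 and 663. After 5-FU, WT libraries A2, A3, A4 and D4 held 5340.4, 5524, 4441 and 4740.4, whereas KO libraries A5, A6 and A8 held 1505, 1117 and 1588. Counts of the other factors below follow the same order of libraries. Every WT library after 5-FU lay above every other library of the series, while the KO libraries after 5-FU lay within the range of untreated WT. The mean was 5011 ± 506 (SD, n = 4) in WT and 1403 ± 252 (n = 3) in KO after 5-FU, 3.57-fold lower in KO (log2 difference -1.61, SE 0.322, limma adjusted p = 0.00378). From the untreated WT mean of 1068 ± 771 (n = 3) the rise in WT was 4.69-fold (2.10, SE 0.322, limma adjusted p = 0.000779). It was 7.22-fold without untreated WT D2 and 3.42-fold without untreated WT D3. In KO the change from 906 ± 486 (n = 3) was 0.54 with a limma adjusted p of 0.414. Log2 differences are on the deposited variance-stabilized scale, which shrinks those of low counts, and folds are ratios of mean normalized counts.

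Zfpm1 (ENSMUSG00000049577, chromosome 8, 122282141 to 122337251, plus strand) is the gene of the GATA1 cofactor FOG1. Untreated WT libraries held 525, 310.2 and 436 normalized reads and untreated KO libraries 398, 415 and 295. The WT libraries after 5-FU held 1151, 901, 903 and 909, against 679, 654 and 329 for KO. All 4 WT libraries after 5-FU lay above all others, and among the KO libraries A8 was lower than A5 and A6. The rise in WT was 2.28-fold (0.80, SE 0.204, limma adjusted p = 0.0258), and it was not called with A3 and D4 averaged (adjusted p = 0.0579) or without untreated WT D2, D3 or 5-FU WT A2, A3 or D4 (adjusted p = 0.0504 to 0.0874). The difference between KO and WT after 5-FU was -0.58 and missed the threshold (limma adjusted p = 0.0803).

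Klf1 (ENSMUSG00000054191, chromosome 8, 84901928 to 84905291, plus strand) encodes the activator of globin and other red cell genes. Before treatment the WT libraries held 402, 20.8 and 155 normalized reads and the KO libraries 568, 355 and 182. Treated WT cells held 1965, 2421, 848 and 2356, and treated KO cells 374, 187 and 498. The 4 WT libraries after 5-FU again lay above the other 9, although A4 stood at less than the others of its group, and the KO counts after 5-FU lay within the range of those before it. The mean rose in WT from 193 ± 193 (n = 3) to 1897 ± 728 (n = 4), 9.85-fold (2.23, SE 0.345, limma adjusted p = 0.000815). The untreated libraries differ so much that this fold was 21.6 without D1 and 6.81 without D2. KO stood at 353 ± 156 after 5-FU, 5.37-fold below WT (-1.67, SE 0.345, limma adjusted p = 0.00477). That call was lost with TMM scaling of log2(count + 1) and with log2(normalized count + 1), where the difference was larger (-2.38 and -2.42) and the adjusted p was 0.0597 and 0.0550.

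Gfi1b (ENSMUSG00000026815, chromosome 2, 28609450 to 28621982, minus strand), a repressor needed for both lineages, had the highest mean level per length of these 4 genes in every group. Untreated WT libraries held 1479, 2609 and 3598 normalized reads, untreated KO libraries 2496, 3208 and 2460.3. With 5-FU the WT libraries held 7772, 5422, 4063 and 4851, and those of KO 3637, 3470.2 and 5242. Both genotypes lay above their untreated libraries, and the groups overlapped after 5-FU. The rise was called in WT (2.16-fold, 1.04, SE 0.240, limma adjusted p = 0.0147), though not without untreated WT D1 (0.74, adjusted p = 0.0615), and the difference in KO was 0.52 (limma adjusted p = 0.266). KO and WT after 5-FU differed by -0.38 (limma adjusted p = 0.357).

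The labels give an acquisition date in 2015 for all untreated libraries and for WT D4 after 5-FU, and in 2016 for the other 6 libraries after 5-FU. Treatment and date therefore cannot be told apart except through D4, which also ran on another flowcell than A2, A3 and A4. D4 had 4740.4 normalized reads of Gata1 and 2356 of Klf1, within the range of the 2016 libraries of its group. It was close to 2016 library A3 across genes (correlation 0.988), so it is not a separate check of date. With year as a term, the WT response compares D4 alone with untreated WT, so any call there rests on 1 library after 5-FU. With year as a term in the fit, 1 of the 4 rises in WT was still called, that of Klf1 (2.57, limma adjusted p = 0.0203), while Gata1 had 2.03 (0.0551), Gfi1b 0.90 (0.277) and Zfpm1 0.74 (0.307). Over all genes, calls in WT went from 858 to 219 with that term. In the same fit 0 of the 2 falls in KO were called, where calls over all genes went from 761 to 7, so this loss says nothing about the factors in particular. Comparisons of KO with WT after 5-FU kept all 5 calls in that fit. There the year term only sets D4 aside, and the differences equal those without D4 (Gata1 -1.63, Klf1 -1.56 and Fli1 -1.24 in both). For this comparison the fit is therefore not a check of date.

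**Figure D2:**
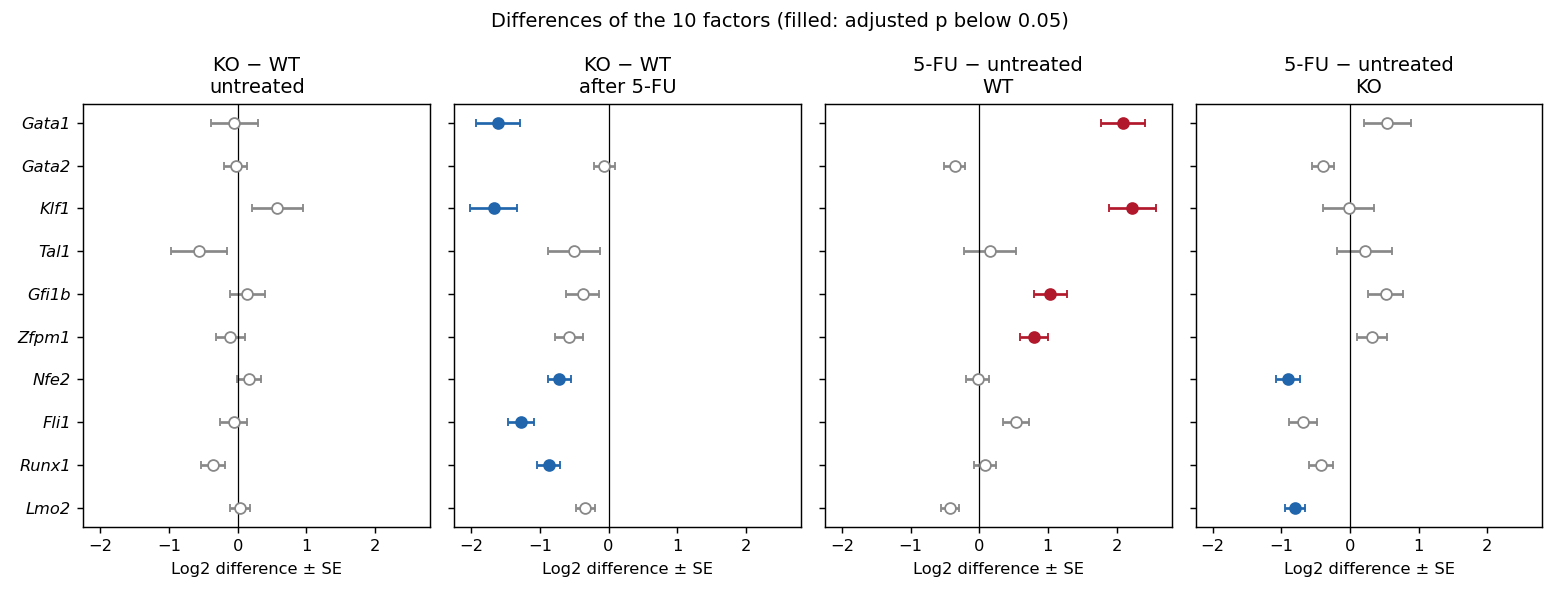
Log2 difference on the variance-stabilized scale (horizontal axis, bars are the SE of the fit) of each factor in 4 comparisons, filled where the adjusted p was below 0.05. After 5-FU all 10 points lie below 0 in KO against WT, with 5 filled, and no point is filled in untreated cells.

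Gata2 (ENSMUSG00000015053, chromosome 6, 88193891 to 88207032, plus strand), the stem cell member of the GATA family, was not called in any comparison. It had 2214, 1891 and 2345 normalized reads in WT and 2434, 1856 and 2022 in KO before treatment. The WT counts after 5-FU were 1937, 1411, 1623 and 1441, and those of KO 1319, 1639 and 1582. The KO libraries after 5-FU lay below the untreated KO libraries, and in WT the groups overlapped by the level of A2. KO and WT after 5-FU differed by -0.06 on the log2 scale (95% interval -0.39 to 0.26, limma adjusted p = 0.854). The WT response was -0.36 (limma adjusted p = 0.183) and the KO response -0.39 (limma adjusted p = 0.193).

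The balance of Gata1 and Gata2 can be given per length, as the ratio of normalized reads per kilobase of annotated exon. In untreated cells the ratio was 1.11, 2.13 and 0.260 for WT and 1.33, 0.701 and 0.726 for KO, in the same order of libraries. With 5-FU it came to 6.10, 8.67, 6.06 and 7.29 for WT, against 2.53, 1.51 and 2.22 for KO. Per length, Gata1 thus exceeded Gata2 in all 7 libraries after 5-FU, while the untreated libraries lay on either side of equality. Without division by length, the ratio of normalized counts was 1.14, 0.681 and 1.00 for KO after 5-FU. It was 2.7 to 3.9 for WT after 5-FU and 0.118 to 0.960 in untreated libraries. Where equality falls therefore depends on the exon lengths used. The lowest WT ratio after 5-FU was above the highest of every other group. The ratio was computed as a description and was not tested.

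**Figure D3:**
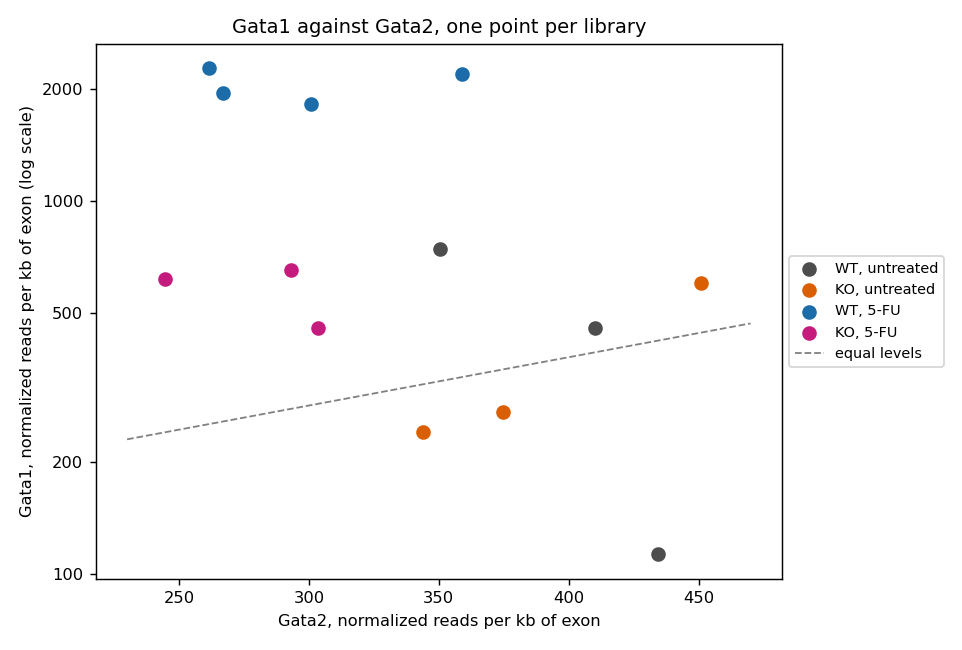
Normalized reads per kilobase of exon of Gata2 (horizontal axis) and Gata1 (vertical axis, log scale), with 1 point per library and a dashed line where both are equal. The 4 WT libraries after 5-FU have Gata1 between 1822 and 2266, and the 3 KO libraries after 5-FU between 458 and 651, at Gata2 levels that overlap.

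Tal1 (ENSMUSG00000028717, chromosome 4, 115056426 to 115071755, plus strand) encodes the basic helix-loop-helix factor of the complex with GATA1. The untreated WT libraries held 2547, 748 and 231 normalized reads, and the untreated KO libraries 386, 566 and 487. With 5-FU, WT counts were 1153, 852, 1125 and 856 and KO counts 793, 764 and 336. The untreated WT libraries spread more widely than any other group of this gene, with D1 the highest and D3 the lowest of all 13. After 5-FU every KO library lay below every WT library, but the difference of -0.50 was not called (95% interval -1.30 to 0.30, limma adjusted p = 0.455). The WT response, 0.15 with a limma adjusted p of 0.856, was 0.78 without untreated D1 and -0.41 without untreated D3.

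Lmo2 (ENSMUSG00000032698, chromosome 2, 103957986 to 103981878, plus strand), whose protein bridges TAL1 and GATA factors, was the most abundant of the 10 per length in every group. Untreated WT libraries held 14603, 11359.6 and 17068 normalized reads, beside 14544, 14059.7 and 14950.2 for untreated KO. Treated WT libraries held 9995, 10277, 10903 and 10513, beside 9150.45, 8438 and 7062 for treated KO. The order ran the same way in every library, with both 5-FU groups below both untreated groups and KO below WT after 5-FU. In KO the mean fell 1.77-fold, from 14518 ± 446 to 8217 ± 1062 (n = 3 and 3, -0.80, SE 0.142, limma adjusted p = 0.00326). The WT difference was -0.43 (limma adjusted p = 0.0656) and that between KO and WT after 5-FU -0.34 (limma adjusted p = 0.122), and neither was called. The WT difference was called with quantile normalization (adjusted p = 0.0485), limma-voom (0.0296) and without untreated WT D2 (0.0138), and that between genotypes with quantile normalization (0.0416) and library weights (0.0114).

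Nfe2 (ENSMUSG00000058794, chromosome 15, 103248212 to 103258403, minus strand) encodes the large subunit of NF-E2, which drives platelet formation. Before 5-FU the WT libraries held 6952, 9983 and 10172 normalized reads and the KO libraries 9774, 9405 and 10909.6. The treated WT libraries held 6827, 9735, 9506 and 9268, and the treated KO libraries 4650.5, 4546 and 6500.1. The 3 KO libraries after 5-FU were the 3 lowest of the series, and WT A2 stood closer to them than to its own group. In KO the mean fell 1.92-fold from 10029.5 ± 784 to 5232 ± 1099 (n = 3 and 3, -0.90, SE 0.177, limma adjusted p = 0.00580). KO was 1.69-fold below the WT mean of 8834 ± 1351 after 5-FU (-0.72, SE 0.166, limma adjusted p = 0.0102), a call lost without KO A5 (adjusted p = 0.0589) or KO A6 (0.0670). In WT the difference after 5-FU was -0.02 (limma adjusted p = 0.952).

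Fli1 (ENSMUSG00000016087, chromosome 9, 32422204 to 32542861, minus strand) encodes an ETS factor of megakaryocyte genes. WT libraries had 2309.8, 1383 and 2081 normalized reads before 5-FU, and KO libraries 1637, 1985 and 1769. The counts of treated WT cells were 3640.5, 2541, 2395 and 3144, those of treated KO cells 1193, 1027 and 762. The WT libraries lay above all untreated libraries and the KO libraries below them. KO stood 2.95-fold below WT after 5-FU, at 994 ± 217 (n = 3) against 2930 ± 574 (n = 4; -1.28, SE 0.187), and had the smallest limma adjusted p of the 10, 0.000355. Neither response alone was called, with 0.53 in WT (limma adjusted p = 0.0996) and -0.68 in KO (0.0535). The KO response lay at the threshold and was called in 8 of 24 alternatives, with only the groups compared (adjusted p = 0.0409) and a filter of 50 (0.0486) among them.

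Runx1 (ENSMUSG00000022952, chromosome 16, 92601466 to 92826149, minus strand) encodes a factor needed to form HSCs and, later, for megakaryocyte maturation. Untreated WT counts were 1543, 1355 and 1662, and untreated KO counts 1224, 1082 and 1011. In treated WT libraries they came to 1839, 1602, 1689.9 and 1417, and in treated KO libraries to 934, 733 and 567. KO lay below WT in both conditions with no overlap. The difference was called after 5-FU (2.20-fold lower, 745 ± 184 against 1637 ± 176, -0.87, SE 0.164, limma adjusted p = 0.00233) and not in untreated cells (-0.36, limma adjusted p = 0.511). The responses to 5-FU were 0.09 in WT (limma adjusted p = 0.806) and -0.43 in KO (0.177). An antisense gene, Gm26626, shares 106 bases or 0.8815% of the Runx1 exons, and without strand in the library such reads cannot be told apart.

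In untreated cells the log2 differences between KO and WT of the other 9 were 0.58 for Klf1, -0.56 for Tal1, 0.16 for Nfe2, 0.14 for Gfi1b, -0.11 for Zfpm1, -0.06 for Fli1, -0.05 for Gata1, 0.04 for Lmo2 and -0.03 for Gata2, with limma adjusted p of 0.645 or more. The KO responses not given above were 0.33 for Zfpm1, 0.21 for Tal1 and -0.02 for Klf1, and these were not called.

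Across the 10 genes, the median log2 difference between KO and WT after 5-FU was -0.65, beside -0.016 over all tested genes. KO and WT libraries did not overlap for 8 of the 10, all but Gata2 and Gfi1b, with KO the lower, and this held for 13.8% of all genes. After 5-FU in WT, 5 genes lay above their untreated libraries with no overlap (the 4 that rose, and Fli1) and 1, Lmo2, lay below, where 8.8% of all genes lay above and 7.92% below. In KO, 5 lay below their untreated libraries with no overlap (Gata2, Nfe2, Fli1, Runx1 and Lmo2) and 1, Gfi1b, lay above, where 14.6% of all genes lay below and 14.2% above. In untreated cells only Runx1 did not overlap between genotypes, 1 of 10, where 11.5% of all genes did not overlap in either direction. These comparisons share libraries, since WT after 5-FU enters both the WT response and the comparison with KO.

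Whether the response to 5-FU differed between genotypes was tested by the interaction of genotype and treatment. It was negative for 9 of the 10 genes, with Tal1 the exception, although with TMM scaling Tal1 turned to -0.0081 and Gata2 to 0.0101, and 2 were called, where 1.8% of all genes had a called negative interaction. Klf1 responded less in KO than in WT by 2.25 on the log2 scale (-2.25, SE 0.505), and Fli1 by 1.22 (-1.22, SE 0.274), both at a limma adjusted p of 0.0256. Nfe2 (-0.88, limma adjusted p = 0.0604) and Gata1 (-1.55, limma adjusted p = 0.0893) missed the threshold, and passed it in 4 and 2 of 23 alternatives. The other values, not called, were -0.51 for Gfi1b, -0.51 for Runx1, -0.47 for Zfpm1, -0.37 for Lmo2, -0.03 for Gata2 and 0.06 for Tal1. Both calls stood near it: that of Klf1 was lost with A3 and D4 averaged (adjusted p = 0.0534) and without untreated KO D4, WT A3 or D4 or KO A5 or A6 after 5-FU (adjusted p = 0.0522 to 0.0840), and that of Fli1 without untreated KO D5 or D6, WT D4 or KO A6 or A8 after 5-FU (adjusted p = 0.0527 to 0.0617).

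Levels of different genes were compared as normalized reads per kilobase of annotated exon, which is longer than any transcript where a gene has several forms. In untreated WT cells Lmo2 was highest (6622 ± 1322), followed by Nfe2 (3024 ± 605) and Gfi1b (1400 ± 579), and these 3 did not overlap. The next, Fli1 (552 ± 138), Gata1 (438 ± 316), Gata2 (398 ± 43.3) and Tal1 (268 ± 278), overlapped each other, as did Runx1 (126 ± 12.8), Klf1 (126 ± 126) and Zfpm1 (121 ± 30.8) at the bottom, which Tal1 and Gata1 also overlapped. In WT after 5-FU Gfi1b (3020 ± 873) and Nfe2 (2956 ± 452) overlapped below Lmo2 (4812 ± 178), and Gata1 (2056 ± 208) and Klf1 (1240 ± 476) stood above Fli1 (840.5 ± 165), though Klf1 and Fli1 overlapped. In KO after 5-FU Gata1 (576 ± 103) stood above Fli1 (285 ± 62.3) and Gata2 (280.4 ± 31.6), which overlapped each other and Klf1 (231 ± 102). Runx1 had the lowest mean of the 10 in that group (61.9 ± 15.3) and overlapped Tal1 (144 ± 58.5).

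Genes known to be driven by these factors were taken as fixed lists, chosen with earlier results of these data known. Of 17 tested megakaryocyte targets, 14 were lower in KO after 5-FU and 0 higher, with a median log2 difference of -1.43 beside -0.016 over all genes. In WT 12 rose and 1 fell, and in KO 0 rose and 1 fell. Over all genes, 5.5% were called lower and 5.36% higher in KO after 5-FU. In the WT response 3.72% of all genes rose and 2.96% fell, and in that of KO 2.78% rose and 3.14% fell. Pf4, a platelet chemokine, rose 22.5-fold in WT (4.11, limma adjusted p = 5.1e-06), and Selp, the adhesion receptor P-selectin, rose by 2.75 on the log2 scale (adjusted p = 5.93e-06). The interaction was negative and called for 12 of the 17, beside 1.8% of all genes. Gp1bb (-2.39, limma adjusted p = 0.0012) and Plek (-2.53, limma adjusted p = 0.00166) were among them. With A3 and D4 averaged, 14 targets were lower in KO after 5-FU and 12 rose in WT, and 10 had a called interaction.

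Red cell targets moved less uniformly. Of 15 tested, 5 were lower in KO after 5-FU and 0 higher, with a median of -0.39, and in WT 2 rose and 1 fell. The shares of all genes were 5.5%, 5.36%, 3.72% and 2.96% in the same order. Both that rose encode membrane channel proteins of red cells, Rhag (2.32, limma adjusted p = 0.000115) and Aqp1 (1.37, limma adjusted p = 0.004), and these had the 2 called interactions (-2.86 and -1.94, limma adjusted p = 0.00247 and 0.0127). Car1, a carbonic anhydrase gene of red cells, had 108 ± 21.1 normalized reads in WT after 5-FU and 0 in all 3 KO libraries, where 3 reads would be 3.54 to 4.03 normalized reads. It was also at 0 in untreated KO, and at 51.7 ± 89.5 in untreated WT. Neither its WT response (limma adjusted p = 0.139) nor its interaction (limma adjusted p = 0.421) was called. In KO the globin gene Hbb-bt rose (2.00, limma adjusted p = 0.00133), while Car2 and Tspan33 fell (-1.16 and -1.13, limma adjusted p = 0.000768 and 0.0159). Car2, a carbonic anhydrase gene, was also the 1 that fell in WT (-0.54, limma adjusted p = 0.043). Globin genes have near-identical copies, so the split of reads among them is uncertain.

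Partners and relatives of the factors were called at about the share of all genes or below it. Of 15 genes of proteins that act in complexes with them, 1 was lower in KO after 5-FU, beside 5.5% of all genes. It was Ssbp2 (-0.78, limma adjusted p = 0.0161), whose protein stabilizes LDB1 in the complex with LMO2, and the call was lost without KO A5 (adjusted p = 0.0658) or KO A6 (0.110). Ldb1 itself differed by -0.32 (limma adjusted p = 0.367), and Cbfb, the partner of RUNX1, by 0.67 (limma adjusted p = 0.0756). Of 16 tested relatives from the same gene families, 0 were called in any comparison, among them Gata3 (-0.12 between KO and WT after 5-FU), Lyl1 (0.08), Erg (-0.08), Runx2 (-0.11) and Klf13 (-0.73, limma adjusted p = 0.0575). At an unadjusted p under 0.05, 1 of the 16 differed between KO and WT after 5-FU, 3 in the WT response, 4 in that of KO, and 0 before treatment or for the interaction. Over all genes the shares at that threshold were 24.8%, 22.4%, 20%, 10% and 16.7% in the same order, so these counts are near the background or below it. At an adjusted p, limma-voom called 1 higher and 1 lower in the WT response and 0 elsewhere. Of 6 tested factors of other blood lineages, Irf8, a monocyte and dendritic cell factor, was higher in KO after 5-FU (0.77, limma adjusted p = 0.017), at 112 ± 120 (n = 3) against 3.19 ± 4.97 (n = 4). Its call was lost without KO A6 (adjusted p = 0.101) or WT D4 (0.0511), and with a filter of 50 it was not tested. Spi1, the opponent of GATA1, differed by -0.05 (limma adjusted p = 0.903).

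**Figure D4:**
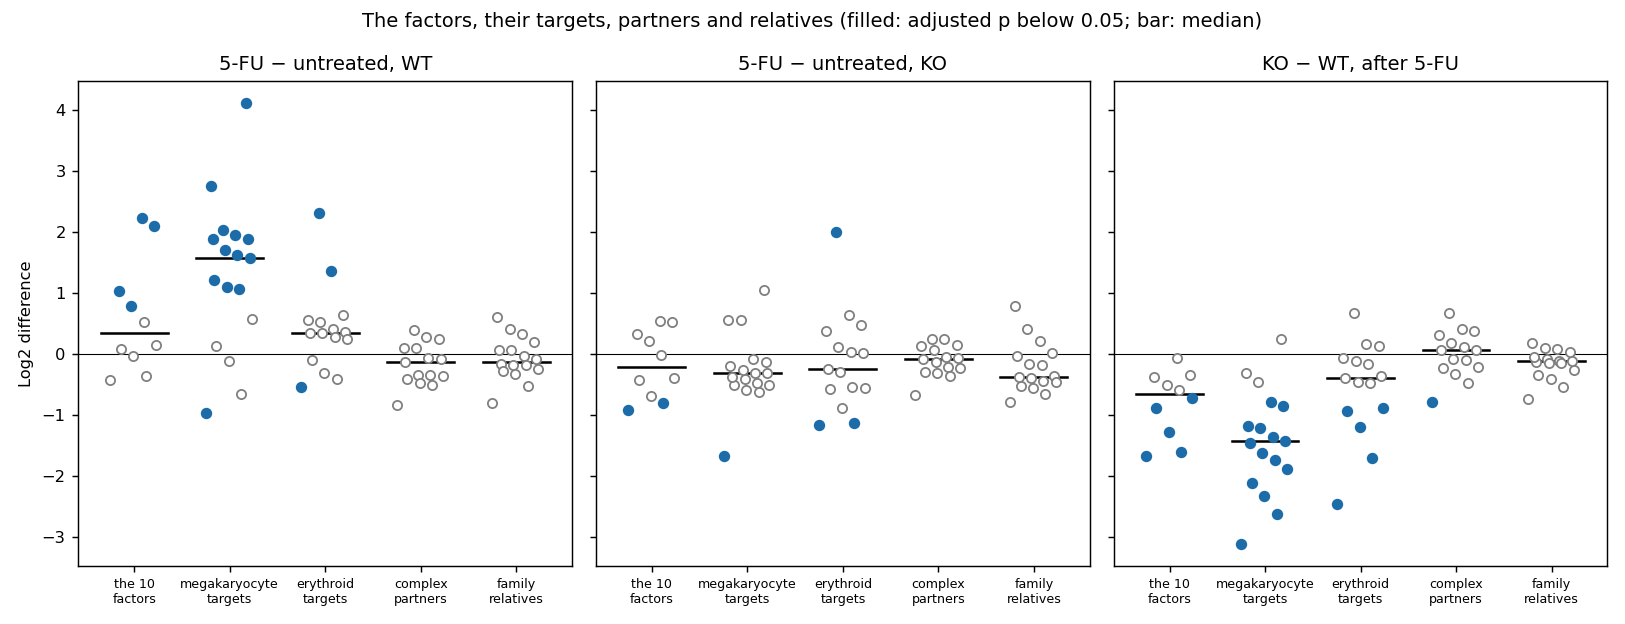
Log2 difference on the variance-stabilized scale (vertical axis) of each tested gene of the 10 factors and of 4 lists (horizontal axis) in 3 comparisons, filled where the adjusted p was below 0.05, with a bar at the list's median. The megakaryocyte targets have medians of 1.58 in the WT response and -1.43 in KO against WT after 5-FU. In the same comparisons the medians are -0.12 and 0.07 for partners, and -0.12 and -0.12 for relatives. In the KO response the median of the relatives is -0.37, beside -0.08 for partners and -0.21 for the 10 factors.

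Markers of other cells moved with these groups, and their part in the results was not tested. The summed normalized count of the 17 megakaryocyte targets in the table was 41067 to 68743 in WT after 5-FU and 9204 to 11961 in KO, beside 11762 to 13939 in untreated WT. The sum of 10 HSC markers was 16483 to 18777 in untreated WT and 13485 to 14971 in untreated KO, and 11641 to 16262 in WT and 6488 to 6915 in KO after 5-FU, where Kit, Mllt3, Slamf1 and Ctnnal1 were lower in KO and Procr higher. Of 9 mast cell and basophil markers, 3 were in the table. Of these, Fcer1a, an IgE receptor gene, was lower in KO after 5-FU (1521 ± 194 in WT and 34.9 ± 59.4 in KO). Cpa3 (578 ± 297 in WT and 358 ± 178 in KO) and Hdc (0.528 ± 0.689 and 17.9 ± 10.3) were not called, and Hdc was the higher in KO. The sum of 7 neutrophil markers was 446 to 1267 in WT and 36.3 to 42.9 in KO after 5-FU, with Mpo and Lcn2 at 0 in all 3 KO libraries. Of 5 eosinophil, 5 monocyte and macrophage, 6 B and T cell and 5 endothelial markers, 2, 3, 1 and 3 were in the table, with sums in WT after 5-FU of 0 to 11.4, 119 to 185, 1139 to 1931 (all of it Cd79b) and 31.2 to 157, and in KO of 1.3 to 23.6, 50.7 to 208, 536 to 777 and 1.3 to 60.5.

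For each factor called in any comparison, the genes with the most similar pattern were found by Pearson's r of the deposited log2-scale values over the 13 libraries among 12702 other named genes. The libraries share group, treatment and depth, and r is given only as a description. Gata1 was followed most closely by P2ry14 (r = 0.956), Unc13a (0.955) and Tmc4 (0.942), and Klf1 by Snrnp48 (0.955), Hist1h2bc (0.932) and Mdm1 (0.919). Gfi1b was nearest to Ppif (0.921), Atpaf1 (0.911) and Rpl36-ps12 (0.910), and Zfpm1 to Gm11960 (0.927), Fam219a (0.912) and Rsbn1l (0.905). Nfe2 ran with Spo11 (0.972), Gm1821 (0.964) and Ubb (0.964), and Lmo2 with Csgalnact1 (0.932), Zfp869 (0.922) and Gm5148 (0.916). Fli1 was nearest to Tnfsf10 (0.935), Rsph9 (0.930) and Slc18a2 (0.888), and Runx1 to 1110032A03Rik (0.918) and Ints6l (0.917). Over the 13 libraries no factor was among the nearest 3 genes of another. With A3 and D4 averaged, the nearest gene became Unc13a for Gata1 (0.951), Ubb for Nfe2 (0.974) and Zfp869 for Lmo2 (0.935). For Runx1, 1110032A03Rik moved to rank 3 (0.917). Klf1, Gfi1b, Zfpm1 and Fli1 kept their nearest gene. Rpl36-ps12 is a pseudogene copy and Hist1h2bc has near-identical relatives, so reads assigned to them are uncertain.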

How the data were processed

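Polyadenylated RNA of 13 HSC libraries was measured. The authors deposited log2-scale variance-stabilized values made with DESeq2, and the submitters' processing notes also name Trimmomatic, Bowtie 1.1.1 and mm10. The counting tool and strand setting are not given in the sources used. The transformation was inverted (floor value 7.6484), which gave whole reads within 0.1 for 100% of genes in every library, and normalized counts from them. The test took the 12846 genes whose normalized count reached 10 in 3 or more libraries. Groups followed the labels. limma 3.58.1 (R 4.3.3) was fitted to the deposited values with 1 mean per group over all libraries and an eBayes trend (9 residual and 7.67 prior degrees of freedom), with Benjamini-Hochberg adjustment within each comparison at 0.05. The fit was tested on simulated data. Symbols and exon lengths are from GENCODE M21 (GRCm38), which named 13054 genes and left 147 unnamed. Promoters are from RefSeq. Other steps ran in Python 3.11.15 (scipy 1.17.1, numpy 2.4.6, matplotlib 3.10.9, pandas 2.3.3).

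The members and lists were chosen with earlier results of these data known. All 10 members are named in each comparison, and from each list up to 4 genes per direction with the smallest p, the other list genes being chosen after their values were seen. Alternatives were leaving out each library, averaging A3 and D4, TMM and quantile scaling, log2 of normalized counts, limma-voom on the recovered reads, a filter of 50 or none, year as a term, library weights and fitting only the groups compared. Values of some single genes are not reported here.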

Additional observations from a re-analysis of the deposited data

Results flagged for a closer look

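The response to 5-FU of Klf1, KO minus WT, was -2.248 on the log2 scale, and that of Fli1 was -1.215, each with a limma adjusted p of 0.0256 for the difference between genotypes. Klf1 rose in WT and stood at 368 ± 194 before and 353 ± 156 after 5-FU in KO, and Fli1 was higher after 5-FU in WT and lower in KO, although neither Fli1 response was called alone.

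In WT after 5-FU, A2 stood apart for Zfpm1, at 1151 normalized reads against 901 to 909 in the other 3 libraries, a gap of 0.967 of the range of the group on the deposited log2 scale. A2 also stood apart for Nfe2, at 6827 against 9268 to 9735, a gap of 0.86 on the same scale. On that scale both gaps exceed Dixon's critical value for 4 samples. The 10 genes were examined in this group of 4, and chance alone exceeds that value in about 1 of 20 groups of independent values. A3 and D4 were close to each other across genes (correlation 0.988), so that rate may not hold here.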

How the results depend on the processing

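Of the 13 called differences of single factors, 0 reversed under 310 alternative fits, 274 kept the call and 36 lost it. Fli1, Runx1 and Gata1 in KO against WT after 5-FU and Klf1 in the WT response kept it in all 24 settings. Of the 37 uncalled differences, 7 gained a call in 21 of 880 alternative fits: Fli1 in KO (8), the interaction of Nfe2 (4) and Gata1 (2), Lmo2 in WT (3) and, between KO and WT after 5-FU, Lmo2 (2), Gfi1b (1) and Zfpm1 (1). Factors called in KO against WT after 5-FU numbered 5, and 8 with library weights, where all genes called went from 1395 to 5611. In the WT response 4 became 1 with year as a term and 2 with only the groups compared, where all genes called went from 858 to 219 and 415, and in the KO response 2 became 0 with year, where all genes called went from 761 to 7. Interaction calls numbered 2, and 1 with A3 and D4 averaged, TMM scaling, log2(count + 1) or log2(count + 5), 0 with limma-voom or year, 4 with library weights, and 0 to 3 with single libraries left out. The cause was not tested.

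Signs that turned belonged to uncalled differences. In untreated cells these were Gata1 (0.0118 and 0.0096 with log2(count + 1) and + 5) and Lmo2 (-0.0638, quantile). After 5-FU it was Gata2 (0.0660, library weights). In the WT response these were Tal1 (-0.2135, voom), Nfe2 (0.0750 voom, 0.0544 year, 0.0295 weights) and Runx1 (-0.0785, year), and in KO Klf1 (0.0176 TMM, 0.0475 quantile, 0.4344 year). For the interaction these were Gata2 (0.0101 TMM, 0.0009 quantile, 0.0838 weights) and Tal1 (-0.0081 TMM, -0.0610 and -0.0570 for log2(count + 1) and + 5). With single libraries left out, untreated differences spanned -0.5737 to 0.3486 for Gata1, -0.1228 to 0.0437 for Gata2, -1.1250 to 0.0675 for Tal1, -0.1614 to 0.3893 for Gfi1b, -0.0093 to 0.2530 for Nfe2, -0.2454 to 0.0613 for Fli1 and -0.1184 to 0.1671 for Lmo2. Gata2 spanned -0.1122 to 0.0147 after 5-FU and -0.1071 to 0.0594 for the interaction, Klf1 -0.2441 to 0.1949 in KO, Tal1 -0.4098 to 0.7826 in WT and -0.5677 to 0.6247 for the interaction, and Nfe2 -0.1953 to 0.0889 in WT.

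Over all 24 settings, megakaryocyte targets lower in KO after 5-FU numbered 12 to 14 and those that rose in WT 9 to 12, and red cell targets lower in KO numbered 4 to 7. Partners lower in KO numbered 0 to 2, with 0 to 4 higher, and relatives 0 to 3 lower. TMM scaling moved the median of all genes by at most 0.053. No paired analysis was possible because the only library number found in more than 1 group, D4, joins groups that are not compared. With 3 or 4 libraries a group, differences within the intervals given could not be detected.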
